A study of Mus musculus with 6 samples.

Results

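Autotypic junctions join the membranes of a single Schwann cell to one another, and the 8 genes described here encode proteins of these adherens, tight and gap junctions. They are Cdh1, Cldn19, Marveld3, Marveld2, Ocln, Tjp1, Gjb1 and Gjc3. All 8 were found among the 18194 genes named on the arrays, and 13 of the 45101 probe sets carried exactly 1 gene symbol equal to one of them. Where a gene had several probe sets, 1 was chosen by its measured values, as the one with the highest mean over the 6 arrays. The set was proposed with earlier results of the same comparison known, so how many of its genes moved describes them and is no independent evidence.

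A myelinating Schwann cell wraps its membrane around 1 axon in many turns. Where cytoplasm remains, in the paranodal loops, the Schmidt-Lanterman incisures and the inner and outer mesaxons, neighbouring turns are stitched together by E-cadherin adherens junctions and by tight junctions that contain claudin-19. Connexin channels in the same regions form a short radial path through the sheath for ions and small molecules.

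The data were 6 Affymetrix Mouse Genome 430 2.0 arrays of sciatic nerves of pups of mixed strain on postnatal day 2, with the perineurium removed. In the double knockout (dKO) group, labelled DhhCre+ HDAC1-2 dKO and with peripheral hypomyelination, the deacetylase genes Hdac1 and Hdac2 were deleted in Schwann cells by a Cre recombinase under the desert hedgehog (Dhh) promoter. The control group was labelled DhhCre–, and the labels do not say which Hdac1 and Hdac2 alleles it carried. Each group had 3 arrays, and the design text counts 3 mutants and 3 littermates, but whether a sample pooled several pups is not stated, so the p-values reflect only how far these samples differ, which may be technical. Values are deposited log2 levels, means carry SD with n = 3 per group, and changes are dKO minus control on the log2 scale with their standard error (SE). A gene entered the test where 3 or more arrays had a log2 level of 4 or above, and it passed at a limma adjusted p under 0.05 over all 14550 genes tested. The number of arrays limits the precision.

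Hdac1 and Hdac2 were lower on all 3 dKO arrays than on any control array (changes of -1.55 and -1.26, and -0.71 for Hdac2 with its probe sets averaged). Other nerve cells in the samples still carry both. Pearson's r over genes was 0.980 to 0.991 for arrays of the same group and 0.925 to 0.963 across groups. Of the 12 Schwann lineage markers, 11 were measured and 0 were under 4 on every array. Among these 11, 3 rose and 2 fell, with a median change of -0.26, and their summed linear level ran from 14360 to 17920 in dKO and from 19590 to 22210 in control nerves. The markers that fell were Erbb3 (-1.33) and S100b (-1.33). Those that rose were Fabp7 (1.95), Cdh6 (1.06) and Ngfr. Sox10, which specifies the lineage, was among the markers not called, with a change of -0.36 (SE 0.26, adjusted p = 0.371). In whole nerve samples fewer cells of a type and less RNA per cell cannot be told apart.

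Of the 8 junction genes, 5 fell in dKO nerves (Marveld3, Cdh1, Cldn19, Gjc3 and Gjb1), Tjp1 and Ocln were tested and did not pass, and Marveld2 was under the limit on every array and was not tested. Among all genes tested, 9.38% were called lower and 12.6% higher. The 5 genes that fell had changes of -4.64 to -2.37 on the deposited values, and 0.873% of genes tested were lower by 2 or more. Marveld3 and Gjb1 had dKO values under the limit. With values under 4 set to 4 their changes were -3.59 and -1.94, so Gjb1 then fell short of 2. The groups did not overlap for 5 of the 7 tested members, against 40.9% of all genes tested, and in each of the 5 every dKO value lay below every control value, as in 18.4% of genes tested. The count of members called higher was 0 in limma and 1 of 7, Ocln, at an unadjusted p under 0.05, against 19.5% of all genes tested. Marveld3 passed the low-value filter through its control arrays alone, so its group difference was built into being tested. Gjb1 passed through its control arrays and dKO 3, and Ocln through its dKO arrays and control 3. For Gjb1 and Ocln, being tested thus rested mainly on the group where each was higher.

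**Figure D1:**
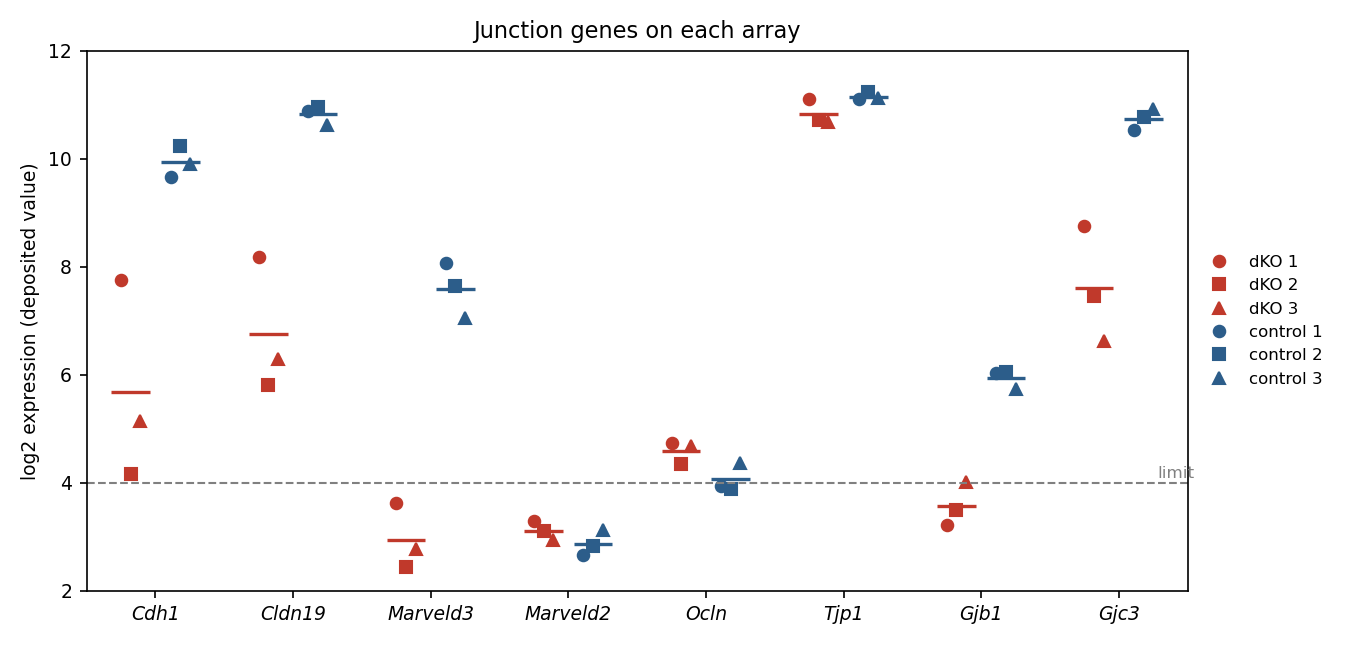
Log2 level of each junction gene on each array, with dKO arrays in red to the left of control arrays in blue, replicates by symbol, group means as bars and the low-value limit of 4 as a dashed line. Cdh1, Cldn19, Marveld3, Gjb1 and Gjc3 have all dKO points below all control points, while the groups overlap for Marveld2, Ocln and Tjp1.

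Cdh1 encodes E-cadherin, the adhesion protein of the adherens junctions between turns of the sheath. Its log2 level was 7.75, 4.17 and 5.14 in dKO 1, 2 and 3, against 9.65, 10.24 and 9.90 in control 1, 2 and 3. All dKO arrays lay below the control arrays, but the dKO arrays were far apart, with dKO 2 just above the low-value limit and dKO 1 well above it. The mean was 5.68 ± 1.85 in dKO and 9.93 ± 0.30 in control nerves, a change of -4.25 (SE 0.77, adjusted p = 0.00580), or 5.27% of the control level. Cdh1 fell by 5.28 without dKO 1 and by 3.49 without dKO 2, and passed in both cases.

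Cdh1 has 1 probe set here, and its SE was the largest of the tested junction genes. The 95% interval of its change ran from -6.00 to -2.49. E-cadherin is also a defining protein of epithelia. Of 12 epithelial markers, 10 were tested, 0 were called in limma in either direction and 0 had an unadjusted p under 0.05. Over all genes tested, 22.0% were called in either direction and 19.5% were higher at an unadjusted p under 0.05. Krt18 and Dsp were under 4 on every array. Control means of the tested markers ran from 4.04 (Krt8) to 5.91 (Krt5), and those close to the limit could hardly show a fall. The part of epithelial cells in the Cdh1 values was not tested. The summed linear level of the epithelial markers was 278 to 388 in dKO and 294 to 338 in control nerves, so the groups overlapped.

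Cldn19 encodes claudin-19, the claudin that forms tight junction strands in Schwann cells. Its log2 level was 8.19, 5.80 and 6.29 in dKO 1, 2 and 3, against 10.88, 10.95 and 10.63 in the controls. As for Cdh1, dKO 1 was the highest and dKO 2 the lowest array. The mean was 6.76 ± 1.26 in dKO and 10.82 ± 0.17 in control nerves, a change of -4.06 (SE 0.53, adjusted p = 0.00133), or 16.7-fold lower. Without dKO 1 the change was -4.77 (adjusted p = 0.000156).

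The promoter of Cldn19 is shown because its transcript fell to such a small share of control. It is the RefSeq window from 250 bases before to 50 after a transcription start, GRCm38.p6 chr4:119255191-119255490, plus strand, printed 5′ to 3′. Capitals mark matches to any of 5 motifs in the sequences printed here. The motifs were searched on both strands and were CACCTG (an E-box bound by ZEB and SNAIL repressors), ACAAAG and ACAATG (SOX cores), GCGNGGGCG (EGR) and GGAATG (TEAD). This window and the second Cldn19 window, which overlaps it, hold none of them, which says only that these letters are not there.
Cldn19: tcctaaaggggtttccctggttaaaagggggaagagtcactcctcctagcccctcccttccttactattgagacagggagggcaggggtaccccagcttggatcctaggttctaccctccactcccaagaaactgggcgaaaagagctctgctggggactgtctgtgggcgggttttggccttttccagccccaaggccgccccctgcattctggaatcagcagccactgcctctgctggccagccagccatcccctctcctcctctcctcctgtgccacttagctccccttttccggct

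Marveld3 encodes a MARVEL domain protein of tight junctions. Its log2 level was 3.62, 2.43 and 2.78 in dKO 1, 2 and 3, against 8.07, 7.64 and 7.06 in control 1, 2 and 3. Every dKO value was under the limit of 4, where levels have little meaning, so the fitted change of -4.64 (SE 0.34, adjusted p = 0.000175) is no bound. With values under 4 set to 4, Marveld3 was at least 12.02-fold lower in dKO nerves.

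Its other probe sets were dimmer. One of them, not tested, read 2.65, 2.60 and 2.62 in dKO nerves and 4.09, 4.75 and 3.63 in control nerves. The other stayed under 4 on all 6 arrays, and its groups overlapped (2.84 to 3.41 in dKO, 3.22 to 3.29 in control nerves). Averaging the 3 probe sets gave a change of -2.12 (adjusted p = 0.000308).

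Marveld2 encodes tricellulin, which seals the points where 3 cells meet in epithelia, and Ocln encodes occludin, a tight junction protein with the same kind of MARVEL domain. Marveld2 read 3.29, 3.11 and 2.94 in dKO nerves and 2.66, 2.83 and 3.12 in control nerves. No array reached the limit, so its transcript was not detectable above background here and no fold is given. Ocln read 4.74, 4.34 and 4.67 in dKO nerves and 3.93, 3.89 and 4.37 in control nerves. Control 3 lay inside the dKO range, and control 1 and control 2 were under the limit.

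The change of Ocln was 0.52 (SE 0.18, 95% interval 0.10 to 0.94, adjusted p = 0.0809). It passed only when control 3 was left out (0.67, adjusted p = 0.0446), and its adjusted p ran from 0.0446 to 0.221 over the alternatives. Its second probe set was under 4 on all arrays. Marveld2 and Ocln lie next to each other on chromosome 13, with no measured coding gene between them.

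Tjp1 encodes ZO-1, the cytoplasmic scaffold that ties claudins, occludin and connexins to actin in many cell types, vessel and perineurial cells included. It read 11.11, 10.72 and 10.68 in dKO nerves and 11.10, 11.23 and 11.12 in control nerves. The array dKO 1 lay within the control range, and dKO 2 and dKO 3 lay below it. The change was -0.31 (SE 0.16, adjusted p = 0.205), with a 95% interval from -0.68 to 0.05, which does not meet the intervals of Cdh1 or Cldn19 (-5.27 to -2.85). Without dKO 1 the change of Tjp1 was -0.45 (adjusted p = 0.0980).

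The gap junction genes both fell. Gjb1 encodes Cx32, the channel protein whose human mutations cause the X-linked form of Charcot-Marie-Tooth neuropathy. It read 3.22, 3.49 and 4.01 in dKO nerves and 6.03, 6.05 and 5.74 in control nerves. All dKO values lay below the controls, and dKO 1 and dKO 2 were under the limit, where values have no order.

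With values under 4 set to 4, Gjb1 was 3.84-fold lower in dKO nerves, and the change fitted to the deposited values was -2.37 (SE 0.21, adjusted p = 0.000305). The second Gjb1 probe set read 3.59, 3.68 and 3.54 in dKO nerves and 4.80, 4.65 and 4.89 in control nerves. It fell by 1.18 (adjusted p = 0.00171 over all probe sets tested) and did not overlap. Under a low-value limit of 6 Gjb1 was not tested.

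Gjc3 encodes Cx29, a connexin which in mouse nerves lies in the innermost Schwann cell membrane facing the axon and in the incisures. It read 8.75, 7.47 and 6.63 in dKO nerves and 10.53, 10.77 and 10.92 in control nerves. All dKO arrays were above the limit and below the controls, and dKO 1 was again the highest. The mean was 7.62 ± 1.07 in dKO and 10.74 ± 0.20 in control nerves, a change of -3.12 (SE 0.45, adjusted p = 0.00215). This left 11.5% of the control level. Its second probe set fell by 2.43 (adjusted p = 0.0101 over all probe sets tested).

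The promoters of both connexin genes are shown because both transcripts fell and because Gjb1 has several starts. The array does not tell which start was used. Of 4 Gjb1 windows, the first held ACAAAG, the second GGAATG and the third none of the motifs. The fourth, GRCm38.p6 chrX:101383482-101383781, plus strand, held CACCTG on the minus strand with its first letter in the window 168 bases before the start, ACAAAG 57 bases before it and ACAATG on the minus strand 47 bases before it, with no overlap between them. The only Gjc3 window, GRCm38.p6 chr5:137963049-137963348, minus strand, held no match.
Gjb1: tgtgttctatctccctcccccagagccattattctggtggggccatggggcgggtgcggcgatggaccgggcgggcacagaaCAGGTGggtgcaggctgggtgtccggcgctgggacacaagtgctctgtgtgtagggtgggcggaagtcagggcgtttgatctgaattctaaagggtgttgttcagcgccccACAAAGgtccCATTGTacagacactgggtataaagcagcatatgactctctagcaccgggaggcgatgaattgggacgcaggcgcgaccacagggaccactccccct
Gjc3: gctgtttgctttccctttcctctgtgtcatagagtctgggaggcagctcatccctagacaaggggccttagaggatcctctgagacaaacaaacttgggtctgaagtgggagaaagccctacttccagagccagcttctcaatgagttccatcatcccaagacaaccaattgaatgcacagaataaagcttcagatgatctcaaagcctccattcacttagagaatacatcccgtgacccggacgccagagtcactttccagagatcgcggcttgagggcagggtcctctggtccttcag

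These matches are common letters. Of 32851 RefSeq promoter windows of 300 bases, 20.2% held CACCTG, 18.7% ACAAAG, 12.6% ACAATG, 14.7% GGAATG and 5.55% GCGNGGGCG. The junction genes not called lower held matches as well, though Marveld2 among them was not tested and may not be expressed here. The window of Tjp1 had GCGNGGGCG, both overlapping windows of Ocln had CACCTG and 1 of them GCGNGGGCG, and both overlapping windows of Marveld2 had CACCTG. Windows were found for 6 of the 8 genes. Cdh1 and Marveld3 are named only.

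The 3 dKO nerves did not lose these transcripts equally. Relative to the control mean, Cdh1 stood at -2.18 in dKO 1, -5.76 in dKO 2 and -4.79 in dKO 3. Cldn19 stood at -2.63, -5.02 and -4.53 in the same arrays, and Gjc3 at -1.99, -3.27 and -4.11. The array dKO 1 was the highest of the dKO arrays for these 3 genes, the members called lower with every dKO value above the limit, and for 46.7% of the 1296 genes of that kind. For Marveld3 and Gjb1 the dKO arrays cannot be ordered, since values lay under the limit. Hdac1 read 8.75 in dKO 1, next to 8.97 and 8.85 in dKO 2 and dKO 3, and Hdac2 read 11.22, next to 10.81 and 11.19. The summed Schwann lineage markers were 17920 in dKO 1, 16690 in dKO 2 and 14360 in dKO 3. The part of these differences in the junction values was not tested.

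**Figure D2:**
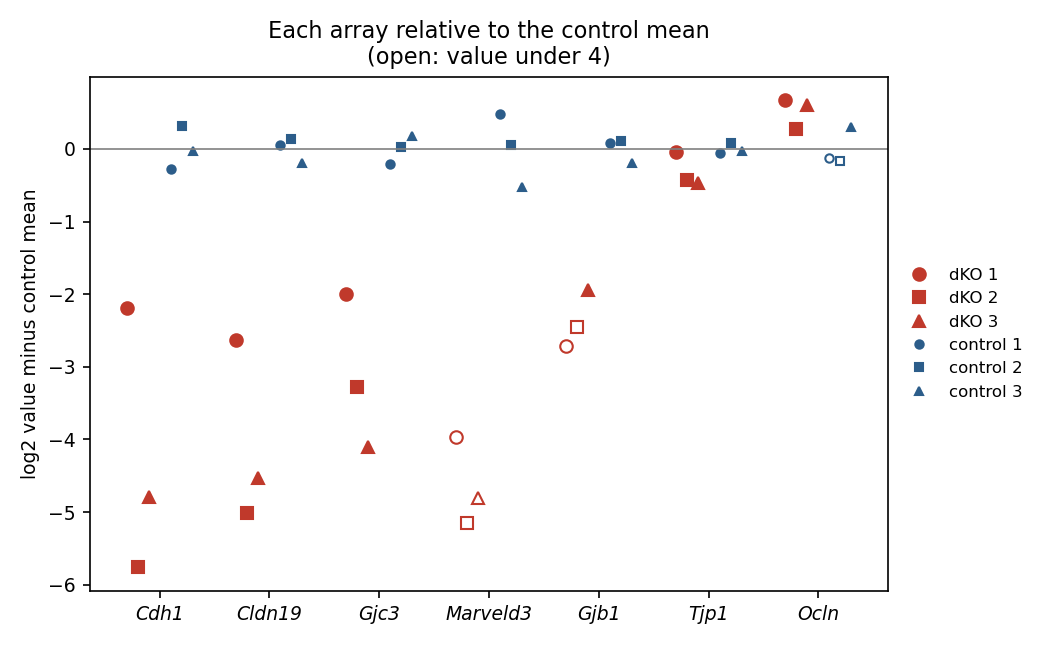
Log2 level of each array minus the control mean for the 7 tested junction genes, dKO arrays as large red symbols to the left of control arrays as small blue symbols, open where the level was under 4. For Cdh1, Cldn19 and Gjc3 the dKO 1 symbol lies between the controls and the other dKO arrays.

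Other adherens junction components moved both ways. Of 12 partners tested, 5 rose and 1 fell, against 12.6% and 9.38% of all genes tested. With 1 of 12 called lower, these partners were little apart from all genes in that direction. Their median change was 0.31 against 0.01 over all genes tested. Cdh2, the N-cadherin of immature Schwann cells, read 11.07, 11.10 and 10.86 in dKO nerves and 9.58, 9.01 and 9.02 in control nerves. It rose by 1.81 (SE 0.19, adjusted p = 0.000548) with no overlap, opposite in direction to Cdh1. The plakophilin gene Pkp4 rose by 1.13 (SE 0.14). Afdn, the afadin that links nectins to actin, rose by 1.05 and Nectin1, a nectin adhesion receptor, by 0.70.

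The call of Afdn was lost without any 1 of the dKO arrays (adjusted p up to 0.0685), and its change was 0.55 with probe sets averaged. Nectin1 was not called when its probe sets were averaged (0.24, adjusted p = 0.201). The fifth gene that rose was Nectin2 (0.65). Plekha7, which anchors E-cadherin junctions to microtubules, was the gene that fell (-1.39, SE 0.19). The catenins that bind the cadherin tail did not pass. Ctnnb1 had a change of -0.02 (SE 0.13), Ctnna1 of -0.30 and Ctnnd1 of -0.38 (adjusted p = 0.944, 0.146 and 0.129). Without dKO 1 or dKO 2 the number called higher was 3.

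**Figure D3:**
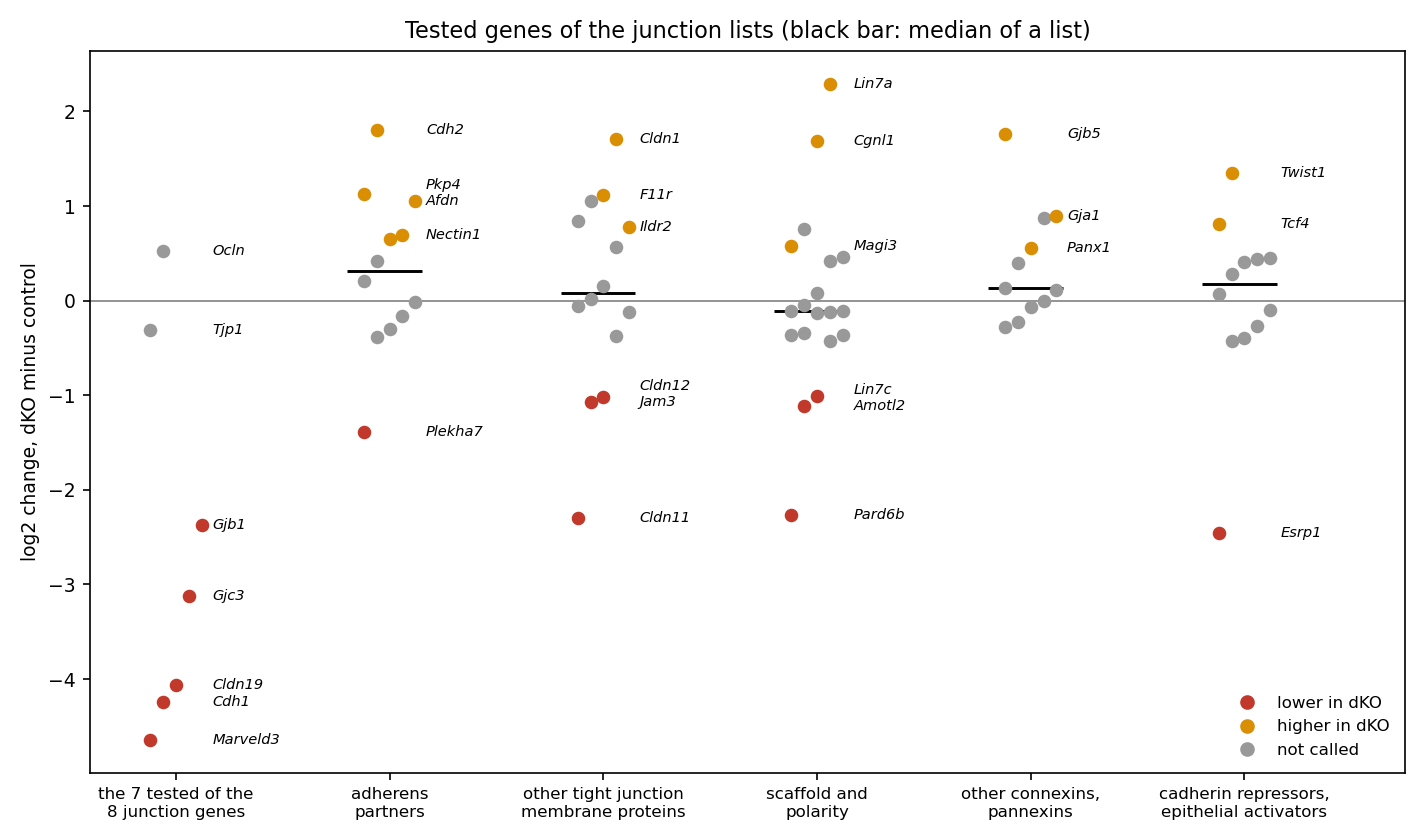
Log2 change, dKO minus control, of every tested gene of the junction lists, with genes called lower in red, called higher in orange and not called in grey, and list medians as black bars. The other lists have medians between -0.11 and 0.31 and members on both sides of 0, and the junction genes that fell lie at -4.64 to -2.37.

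Of 22 other membrane proteins of tight junctions, 14 were tested, 3 fell and 3 rose, against 9.38% and 12.6% of all genes tested. Their median change was 0.08. Cldn11, the claudin of oligodendrocyte myelin, read 6.29, 5.62 and 5.69 in dKO nerves and 7.92, 8.06 and 8.53 in control nerves. It fell by 2.30 (SE 0.23, adjusted p = 0.000482) without overlap. Jam3, an adhesion molecule found in Schwann cells, fell by 1.08 (SE 0.17), and Cldn12 fell by 1.02 (SE 0.16). The claudin of perineurial cells, Cldn1, rose by 1.70 (SE 0.40, adjusted p = 0.0173), with 8.87 to 9.10 in dKO and 6.41 to 8.25 in control nerves.

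The Cldn1 call was lost without dKO 1, dKO 2 or control 2 (adjusted p up to 0.0584), and averaging its probe sets gave 0.83. F11r, which encodes JAM-A, rose by 1.11 (SE 0.23), and by 0.53 with probe sets averaged. Ildr2 rose by 0.78, a call lost with probe sets averaged and without dKO 1, dKO 3, control 1 or control 2 (adjusted p up to 0.364). Without control 2 only 1 gene of this list was called higher. Cldn5, the claudin of vessels, had a change of 0.57 (adjusted p = 0.104).

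Markers of other nerve cells are set beside all genes tested, of which 12.6% were called higher and 9.38% lower. At an unadjusted p under 0.05, 19.5% of all genes tested were higher. Of 10 perineurial markers, which include Cldn1, 9 were tested, 6 rose and 1 fell (Itgb4, a call lost in 7 of 13 alternatives), with a median change of 1.31. Their summed linear level was 4255 to 5253 in dKO and 2384 to 2649 in control nerves, and 0 were under 4 on every array. Without control 2 the number that rose was 3. The perineurium had been removed from these nerves, and the part of any remainder of it in these values was not tested. Of 8 pericyte and 8 fibroblast markers, 5 each rose (3 fibroblast markers without dKO 2 or control 2), and of 8 macrophage markers 2 rose (0 without dKO 2, control 2 or control 3). Of 12 endothelial markers 0 were called in limma (2 higher with a replicate block or with probe sets averaged, 1 without dKO 1 or control 2) and 4 were higher at an unadjusted p under 0.05, with summed levels of 2182 to 2892 in dKO and 1599 to 2097 in control nerves. The part of such cells in the junction genes that rose was not tested.

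Scaffold and polarity genes moved both ways. Of 21, 19 were tested, 3 fell and 3 rose, against 9.38% and 12.6% of all genes tested, with a median change of -0.11. Pard6b, a polarity protein, read 4.58, 4.15 and 4.15 in dKO nerves and 6.78, 6.95 and 5.95 in control nerves. It fell by 2.27 (SE 0.27, adjusted p = 0.000861) to just above the limit, with no overlap. Amotl2, an angiomotin that binds junction scaffolds, fell by 1.11 and Lin7c, a polarity scaffold, by 1.01 (adjusted p = 0.00490 and 0.0118).

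The related gene Lin7a read 7.73, 8.02 and 8.12 in dKO nerves and 6.16, 5.45 and 5.39 in control nerves, so these Lin7 paralogs moved in opposite directions. Lin7a rose by 2.29 (SE 0.23, adjusted p = 0.000453). Cgnl1, which encodes paracingulin, rose by 1.68 (SE 0.27). Magi3 rose by 0.58, which did not pass with a replicate block (adjusted p = 0.0531) or without control 2 (adjusted p = 0.0577). Mpdz and Patj, multi-PDZ scaffolds of tight junctions, had changes of -0.37 and -0.42 (adjusted p = 0.135 and 0.145).

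No other connexin tested was called lower. Of 16 connexin and pannexin genes, 12 were named here and 11 were tested. In limma 3 rose and 0 fell, 0 also at an unadjusted p under 0.05, with a median change of 0.14. Among all genes tested, 9.38% were called lower and 12.6% higher, so 0 of 11 called lower sets this list little apart. Several of its genes lay near the limit in control nerves (Gjd2 at 3.99, Gja3 at 4.50, Panx3 at 4.69), where a fall could hardly be seen. Gja1 encodes Cx43, which many cell types use. It read 10.81, 10.75 and 11.07 in dKO nerves and 9.93, 9.99 and 10.04 in control nerves, with no overlap. It rose by 0.89 (SE 0.14, adjusted p = 0.00348).

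Gjb5, a connexin best known from skin and placenta, read 6.09, 6.15 and 6.78 in dKO nerves and 4.05, 4.47 and 5.22 in control nerves. It rose by 1.76 (SE 0.31, adjusted p = 0.00526). Panx1 encodes a channel protein related to invertebrate gap junction proteins and rose by 0.56. It did not pass with a replicate block or without dKO 2, control 1 or control 3 (adjusted p up to 0.0692). With probe sets averaged, 5 genes of this list rose.

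Transcription and splicing regulators of E-cadherin and of the epithelial state were compared as well. Of 15, 12 were tested, 2 rose and 1 fell, against 12.6% and 9.38% of all genes tested, with a median change of 0.18. Esrp1, an RNA-binding protein that directs epithelial splicing, read 3.63, 3.71 and 3.54 in dKO nerves and 6.77, 5.82 and 5.65 in control nerves. With values under 4 set to 4 it was at least 4.23-fold lower in dKO nerves (adjusted p = 0.00144, and 0.000725 on the deposited values), and it passed the low-value filter through its control arrays alone. Its paralog Esrp2 had a change of 0.28 (adjusted p = 0.202).

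Tcf4, a basic helix-loop-helix factor, rose by 0.82 (SE 0.16, adjusted p = 0.00908). Twist1, another factor of that family and a repressor of E-cadherin, rose by 1.35 (SE 0.41, adjusted p = 0.0465). The Twist1 call was lost with no filter and without any 1 of the arrays other than control 3 (adjusted p up to 0.135). Each of these settings left 1 gene called higher. The E-cadherin repressors Zeb1, Zeb2 and Snai2 had changes of 0.44, -0.42 and 0.41 (adjusted p = 0.0550, 0.0937 and 0.379), and Snai1 was under 4 on every array.

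Of the genes beside the junction genes on the chromosome, Cyp3a13 was the only one called. The nearest measured protein-coding genes on either side, by the RefSeq table of GRCm38.p6, gave 14 genes outside the set, of which 13 were tested. Of these, 1 fell and 0 rose (limma, 0 rising also at an unadjusted p under 0.05), against 9.38% and 12.6% of all genes tested. The other 12 had changes from -0.38 to 0.50 (adjusted p of 0.170 or more). Cdh3, which encodes P-cadherin and lies beside Cdh1, read 5.40, 4.96 and 5.80 in dKO nerves and 5.82, 5.71 and 5.52 in control nerves. Its change was -0.30 (SE 0.22, adjusted p = 0.379). Tango6, on the other side of Cdh1, had a change of -0.32, and P3h1 and Ybx1 beside Cldn19 had 0.17 and -0.30.

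Phlpp2 and Tat beside Marveld3 had changes of -0.38 and -0.05, and Nlgn3 and Zmym3 beside Gjb1 had 0.18 and -0.34. The gene that fell was Cyp3a13, a cytochrome P450 gene beside Gjc3, which read 4.71, 4.62 and 4.44 in dKO nerves and 6.23, 5.91 and 5.56 in control nerves (-1.31, SE 0.19, adjusted p = 0.00226). On the other side of Gjc3, Azgp1 was under 4 on every array.

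**Figure D4:**
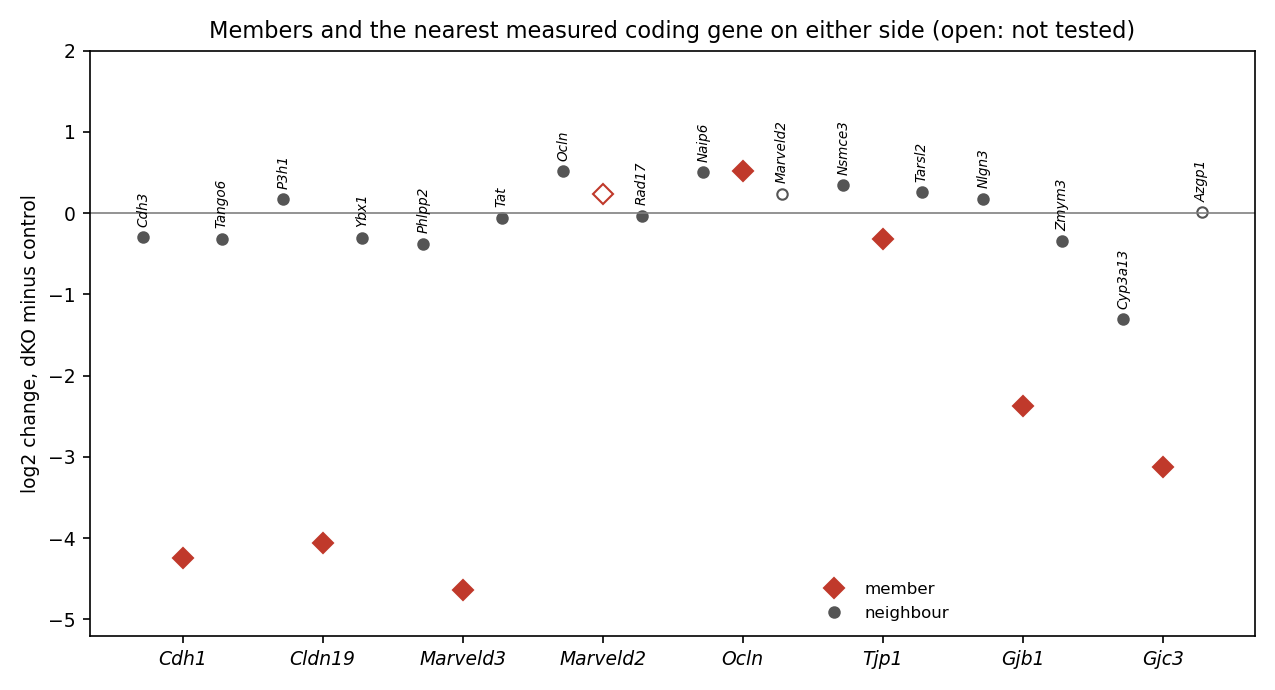
Log2 change, dKO minus control, of each junction gene (red diamonds) and of its nearest measured coding neighbours on either side (grey circles), open where not tested. Among the tested neighbours outside the set, Cyp3a13 at -1.31 is the one that was called.

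The genes whose 6 values were most like those of each junction gene were found by the root mean square difference between profiles, each minus its own mean over the 6 arrays. For Cdh1 these were Fa2h (0.28) and Pllp (0.38), and for Cldn19 they were Fa2h (0.14) and Ncmap (0.17). Gjc3 was closest to Ugt8a (0.19) and Mme (0.27). For Marveld3 (Mag at 0.35, Ncmap at 0.48) and Gjb1 (Crym at 0.24, Sncg at 0.26) the distances rest in part on values under the limit, so their order has little meaning. Fa2h, which encodes fatty acid 2-hydroxylase, read 9.11, 6.31 and 7.13 in dKO nerves and 11.51, 11.76 and 11.44 in control nerves. The order of its dKO arrays was that of Cdh1, but Fa2h was picked by these same values, so the shared order is no separate evidence. Tjp1 was closest to D2hgdh (0.05) and Vps54 (0.05), and Ocln, with 2 control values under the limit, to Rtp3 (0.06) and Arhgap29 (0.08), none of which passed the test.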

How the data were processed

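Total RNA was isolated with a QIAGEN lipid tissue kit and labelled with biotin, per the labels. The authors deposited log2 expression per probe set, with GCOS 1.2 and GCRMA named in the submitters' processing notes and no settings. That the scale is log2 was inferred from the range of 1.66 to 14.94. All arrays had a median of 5.77 and nearly equal distributions, so a shift of all genes would not be seen. Gene symbols came from GEO's platform annotation (probe sets: 34958 with 1 symbol, 932 with several and 9211 not named here) and were updated through a RefSeq table of GRCm38.p6. The comparison was fitted with limma 3.58.1 in R 4.3.3, without covariates and with p-values adjusted by Benjamini-Hochberg across every tested gene. Tested on simulated data with known changes, the fit found most large changes and fewer small ones, and wrong calls were more frequent than the threshold of 0.05 allows on average. All p-values are two-sided. Linear levels are 2 to the power of the deposited values, summed over the named markers.

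The members and lists were chosen with earlier results of these data known, and the lists were written from general knowledge. Named genes were the 8 members, Hdac1 and Hdac2, up to 4 called genes of each list in each direction, the nearest neighbours and the 2 most similar profiles. Nectin2, the catenins, Mpdz, Patj, Cldn5, Esrp2, Zeb1, Zeb2, Snai1, Snai2, Sox10, Krt18 and Dsp were added after their values were seen. List genes with no named probe set were not analysed here. Alternatives were another low-value limit, no limit, averaged probe sets, centred arrays, an intensity trend, a replicate block, each array left out and, chosen after seeing the data, values under 4 set to 4. Promoter sequences are from RefSeq, build GRCm38.p6.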

Additional observations from a re-analysis of the deposited data

How the results depend on the processing

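The 5 junction genes called lower were lower and past the threshold under every alternative in which they were tested, Gjb1 not being tested under a limit of 6, which left 4. With an array left out, the change ran from -5.28 to -3.49 for Cdh1, -4.77 to -3.58 for Cldn19, -4.98 to -4.39 for Marveld3, -3.69 to -2.63 for Gjc3 and -2.58 to -2.19 for Gjb1. Averaging probe sets gave -2.12 for Marveld3, -1.77 for Gjb1 and -2.78 for Gjc3. Setting values under 4 to 4 gave -3.59 for Marveld3 and -1.94 for Gjb1. Ocln was called higher without control 3 (0.67), so leave-one-out gave 0 to 1 members called higher, and its change ran from 0.43 to 0.67. It was not tested under a limit of 6 or with probe sets averaged. Tjp1 was not called under any of the 13 alternatives (-0.45 to -0.24). Over all genes, leaving out an array gave 1246 to 1585 genes higher and 891 to 1331 lower, the lowest without control 2, against 1833 and 1365 with all arrays, and the cause was not tested. Whether replicate numbers pair the samples is not known, and the main fit did not pair them. The correlations of deviations from the group means between same-numbered arrays, over genes, were 0.04, -0.12 and -0.23. Between differently numbered dKO and control arrays they ran from -0.160 to 0.215. With 3 arrays a group these values cannot settle pairing. A replicate block gave 1501 genes higher and 1056 lower, with 5 members lower. For the tested members, Hdac1, Hdac2 and the counts of genes called, 439 recomputed values kept their direction and call or, for a count, stayed close to it, 38 counts moved further, 1 call was gained and 0 reversed. For 47 other named genes, 563 of 606 recomputed values kept their call, 41 lost it, 2 gained it (Pecam1 and Tek with a replicate block) and 0 reversed. Signal near the limit of 4 bounds what can be said of Marveld2, Ocln and, in dKO nerves, Marveld3 and Gjb1.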
